A study of Mus musculus with 6 samples.

Results

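The genes described here are 10 members of the integrated stress response: Atf4 and 9 genes known as targets of the transcription factor that it encodes. They were taken by name from the deposited count table of 55367 gene names, and all 10 were present and had enough counts to be tested. RNA was measured in 6 libraries titled cortical neurons. The cells were cultured for 2 days from the cerebral cortex of C57BL/6J pups at postnatal day 1. Of the libraries, 3 were from wild type (WT) mice and 3 from Fmr1-KO mice, which lack the RNA-binding protein FMRP. By the study's methods, cells had been depleted of ACSA2+ astrocytes and of myelin before plating. The study asked whether mRNAs degraded by nonsense-mediated mRNA decay (NMD) were lower without FMRP. Each comparison below is of Fmr1-KO relative to WT.

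In the integrated stress response, kinases that sense amino acid shortage, unfolded protein in the endoplasmic reticulum (ER), double-stranded RNA or heme deficiency phosphorylate the translation factor eIF2. General translation then slows, while translation of Atf4 mRNA, which is held back by short upstream reading frames, increases. ATF4 protein enters the nucleus, pairs with C/EBP-family proteins and activates genes for amino acid synthesis, amino acid uptake and stress signaling, and Atf4 protein can therefore change without a change of Atf4 mRNA. Several of these mRNAs are also known in other cells as substrates of NMD. None of the 10 names was in the list of NMD targets that the study drew up in Neuro-2a neuroblastoma cells. Of the other pathway genes named below, Jun, Jund, Nupr1, Sesn1, Aldh1l2, Yars, Trib1 and Slc3a2 were in that list. Among these, Jun, Jund, Nupr1 and Sesn1 rose, Aldh1l2, Yars and Trib1 fell, and Slc3a2 did not pass the test.

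The DNA element through which ATF4 acts is the C/EBP-ATF response element. Its core, TTGCATCA, was searched on both strands from 250 bases before to 50 bases after each RefSeq start site (GRCm38.p6). The core was found in 3 of the 10 genes, Atf3, Chac1 and Slc7a11, and in 0.895% of the 32851 windows of all genes. Among the 15824 windows of tested genes the share was 0.575%. A looser form, TGATGNAA, which takes in the core read on the other strand, was found in 5 of the 10, adding Asns and Trib3, and in 3.97% of all windows (2.31% of those of tested genes). Slc7a11 held a pair of core matches on opposite strands. The sequences around these matches are shown because these 5 genes differed from each other in direction in Fmr1-KO. Each is printed 5′ to 3′ on the strand of its gene, with the match in capitals. The Asns and Trib3 stretches are kept short because GENCODE M21 places all or some of these bases in an exon.
Atf3, chr1:191183376-191183503, minus strand: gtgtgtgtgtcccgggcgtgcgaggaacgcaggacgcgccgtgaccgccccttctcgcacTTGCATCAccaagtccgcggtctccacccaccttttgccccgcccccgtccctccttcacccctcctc
Chac1, chr2:119350992-119351116, plus strand: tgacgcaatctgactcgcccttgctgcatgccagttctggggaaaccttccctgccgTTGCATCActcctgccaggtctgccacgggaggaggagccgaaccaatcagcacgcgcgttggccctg
Slc7a11, chr3:50443614-50443739, minus strand: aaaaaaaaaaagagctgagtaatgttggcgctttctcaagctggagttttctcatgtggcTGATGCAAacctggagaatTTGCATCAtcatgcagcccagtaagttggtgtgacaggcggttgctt
Asns, chr6:7693214-7693243, minus strand: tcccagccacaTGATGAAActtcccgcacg
Trib3, chr2:152344028-152344057, minus strand: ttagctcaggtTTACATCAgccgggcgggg

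Psat1 has 2 RefSeq windows, both searched. The windows of Atf3 and Psat1 lie wholly inside the gene spans of GENCODE M21, and starts further upstream were not searched. The matches began between position -193 (Chac1) and position 15 (Trib3) from the start site, and the windows of Atf4, Ddit3, Psat1, Phgdh and Sesn2 held none. The ER stress element half-sites CCAAT and CCACG were found in 8 and 7 of the 10 genes, and in 37.4% and 32.8% of all windows. Among windows of tested genes the shares were 37.4% and 44.7%. These short motifs are common, and a match describes letters only.

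**Figure D1:**
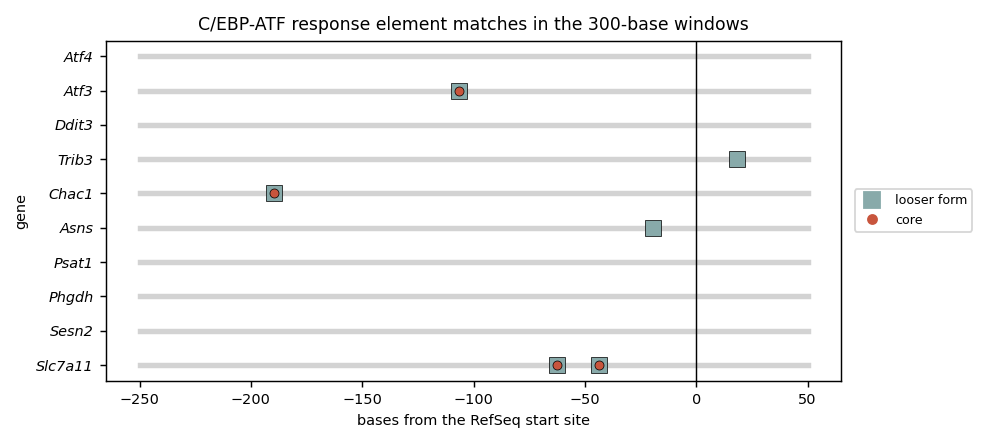
Positions of the C/EBP-ATF response element core (circles) and its looser form (squares) in bases from the RefSeq start site, for the 10 genes; grey lines span the searched windows. Atf3, Chac1 and Slc7a11 hold the core, Asns and Trib3 the looser form only, and the other genes hold no match.

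The libraries held 30348556 to 35126207 counts, and counts are given below with CPM, counts per 1000000 after TMM scaling. Fmr1, the targeted gene, had 3656 to 4113 counts in WT and 1761 to 1972 in Fmr1-KO, so each library matched its label, and Fmr1 fell by 0.98 on the log2 scale. Pan-neuronal, glial and progenitor markers were present in both genotypes. Of 10 neuronal markers 9 fell and 1 rose (Dcx, log2 fold-change 0.08, a call lost when WT replicate 1, WT replicate 3 or replicate 3 of Fmr1-KO was left out), and their summed level was 4888 to 5018 CPM in WT and 4225 to 4422 CPM in Fmr1-KO. All 10 markers of proliferating cells rose, from 513.9 to 553.1 CPM summed in WT to 884.9 to 941.2 CPM in Fmr1-KO. Of 10 markers of neural progenitors 5 rose and 1 fell, with summed levels of 2511 to 2534 CPM and 2827 to 2902 CPM. Of 10 astrocyte markers 6 fell and 2 rose, with summed levels of 5741 to 5857 CPM and 5093 to 5495 CPM. Gfap was at 2649 ± 67.0 CPM (SD, n = 3) in WT, above the WT mean of each of the 10 neuronal markers (the highest was Dcx, 1253 CPM). The levels given below are thus those of mixed cultures and not of neurons alone. Oligodendrocyte lineage markers (10 of 10) and microglia markers (9 of 10) fell, and of 9 tested endothelial and mural markers 4 rose and 3 fell. No marker was at 0 in all libraries, and Cldn5 alone had too few counts to be tested. In such bulk cultures fewer cells of a type and less RNA per cell cannot be told apart.

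Of the 10 genes, 5 were higher and 2 were lower in Fmr1-KO at an adjusted P under 0.05 by edgeR. Over all 16976 tested genes 20.7% were called higher and 21.9% lower, 42.6% in either direction, so a call by itself was common in this comparison. Trib3, Chac1, Phgdh, Sesn2 and Psat1 rose, Asns and Atf3 fell, and Atf4, Ddit3 and Slc7a11 did not pass the threshold. The median log2 fold-change of the 10 genes was 0.165, against 0.0060 over all tested genes. In 8 of the 10 the libraries of the genotypes did not overlap, which was also true of 51.7% of all tested genes. With a fold change above 1.2 required, which 13.1% of genes met, Trib3 and Phgdh remained higher and Asns remained lower.

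**Figure D2:**
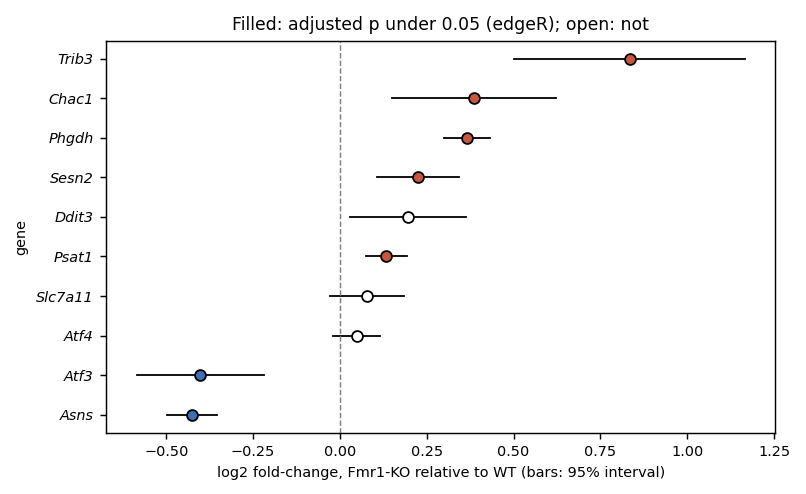
Log2 fold-change (x axis) of each of the 10 genes (y axis) in Fmr1-KO relative to WT with its 95% interval; filled points have an adjusted P under 0.05 by edgeR. The changes run from -0.43 for Asns to 0.83 for Trib3, and the intervals of Atf4 and Slc7a11 include 0.

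Atf4, the transcription factor of the response, is a gene of chromosome 15 (80255184 to 80257541 on the plus strand, GRCm38). It had 5984, 5772 and 5815 counts in WT replicates 1, 2 and 3, and 6072, 5456 and 6043 in Fmr1-KO replicates 1, 2 and 3. Scaled, these were 172.2, 174.6 and 174.2 CPM in WT and 186.7, 178.2 and 173.7 CPM in Fmr1-KO. The genotypes overlapped, as Fmr1-KO replicate 3 lay within the WT range. The difference did not pass the threshold (log2 fold-change 0.05, SE 0.03, edgeR adjusted P = 0.251), and its 95% interval ran from -0.02 to 0.12 on the log2 scale. The level of ATF4 protein was not measured here.

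Atf3 and Ddit3 encode bZIP transcription factors that act with or after ATF4. Atf3, on chromosome 1 (191170296 to 191218039, minus strand), had 311, 310 and 313 counts in WT and 203, 234 and 247 in Fmr1-KO. These came to 8.95, 9.38 and 9.38 CPM against 6.24, 7.64 and 7.10 CPM, and every Fmr1-KO library lay below every WT library. Atf3 fell by 0.40 on the log2 scale (SE 0.09, edgeR adjusted P = 0.000864), to a level 24.3% below WT as a ratio of 0.757. Its RefSeq window, which lies inside this span, was among those with the core element.

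Ddit3, on chromosome 10 (127290829 to 127293753, plus strand), encodes CHOP, which promotes cell death when stress persists. It had 326, 357 and 365 counts in WT and 381, 387 and 393 in Fmr1-KO, or 9.38, 10.8 and 10.9 CPM against 11.7, 12.6 and 11.3 CPM. The genotypes did not overlap, yet the log2 fold-change of 0.20 (SE 0.08) had an adjusted P of 0.0538 by edgeR. Ddit3 lay close to the threshold, which it passed with library totals alone (adjusted P 0.0279) and without WT replicate 3 (adjusted P 0.0422), by edgeR.

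Trib3 and Chac1 are induced downstream of ATF4 and CHOP. Trib3, on chromosome 2 (152337422 to 152344032, minus strand), encodes a pseudokinase that binds AKT and restrains ATF4 itself. It had the largest change of the 10 genes and the lowest counts, with 97, 105 and 88 in WT and 192, 181 and 126 in Fmr1-KO. Scaled, these were 2.79, 3.18 and 2.64 CPM in WT and 5.90, 5.91 and 3.62 CPM in Fmr1-KO. Fmr1-KO replicates 1 and 2 were nearly equal and replicate 3 was much lower, though still above every WT library. The log2 fold-change was 0.83 (SE 0.16, edgeR adjusted P = 0.000212), a 1.78-fold higher level with a 95% interval of 0.50 to 1.17 on the log2 scale. The coefficient of variation was 25.7% in Fmr1-KO, where counting error alone would give 7.75%, and 9.68% in WT, where counting error would give 10.2%.

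Chac1, also on chromosome 2 (119351229 to 119354381, plus strand), encodes an enzyme that degrades glutathione. Its counts were 138, 141 and 138 in WT and 196, 169 and 162 in Fmr1-KO, or 3.97, 4.26 and 4.14 CPM against 6.03, 5.52 and 4.66 CPM. All Fmr1-KO libraries lay above all WT libraries, and replicate 3 was again the lowest of its genotype. Chac1 rose with a log2 fold-change of 0.39 (SE 0.11, edgeR adjusted P = 0.00875). That call was lost without Fmr1-KO replicate 1, where the log2 fold-change was 0.30 and the edgeR adjusted P = 0.0634.

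**Figure D3:**
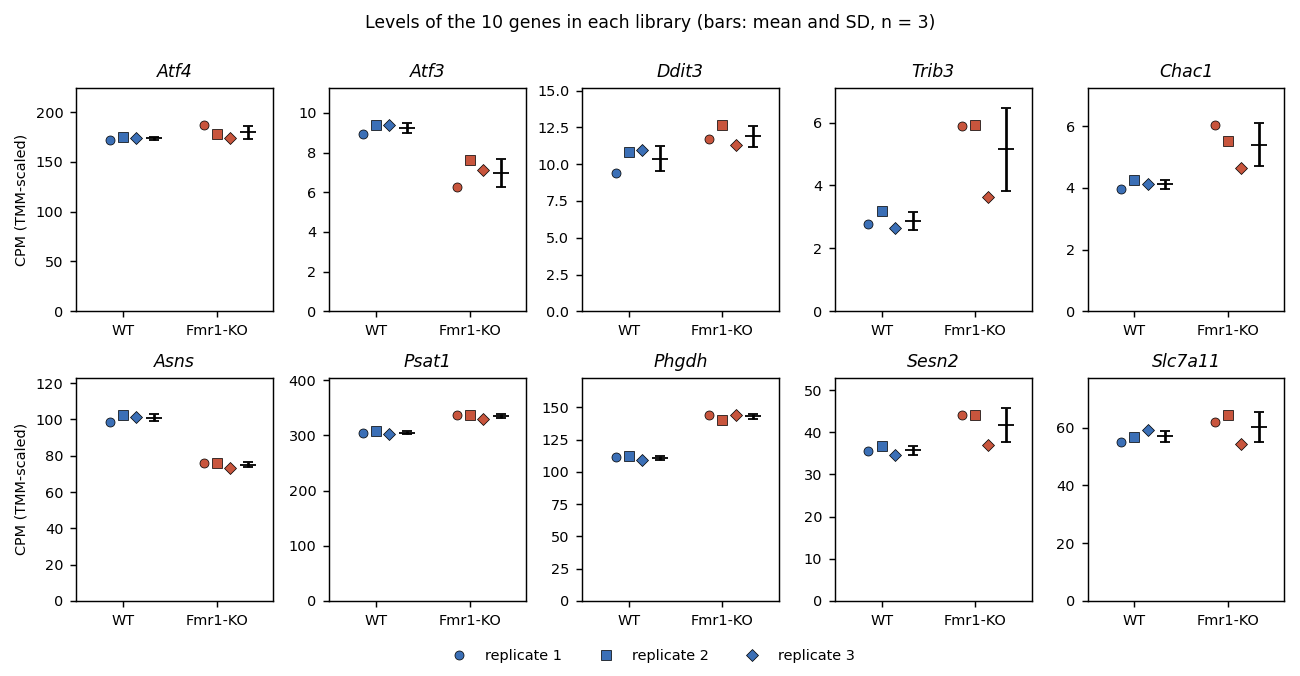
CPM (y axis, from 0, TMM-scaled) of the 10 genes in each WT and Fmr1-KO library; symbols mark replicates 1 to 3, and the bars beside them give the mean and SD (n = 3). Trib3 in Fmr1-KO lies at 5.90, 5.91 and 3.62 CPM, while Asns lies at 73.4 to 76.3 CPM below WT libraries of 98.9 to 103 CPM.

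The amino acid synthesis genes moved in opposite directions. Asns, asparagine synthetase, lies on chromosome 6 (7675169 to 7693254, minus strand) and is a classical target of ATF4 through the element shown above. It had 3436, 3389 and 3382 counts in WT and 2480, 2319 and 2555 in Fmr1-KO. In CPM these were 98.9, 103 and 101 against 76.3, 75.8 and 73.4, with a wide gap between the genotypes and little spread within them. Asns fell by 0.43 on the log2 scale (SE 0.03, edgeR adjusted P = 2.30e-09), to 0.745 of the WT level.

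Phgdh and Psat1 encode the first enzymes in the pathway that makes serine from a glycolytic intermediate, and both are also known to be high in radial glia and astrocytes. Phgdh, on chromosome 3 (98313170 to 98339990, minus strand), had 3887, 3706 and 3640 counts in WT and 4690, 4301 and 5017 in Fmr1-KO. These were 111.8, 112.1 and 109.1 CPM in WT and 144.2, 140.5 and 144.2 CPM in Fmr1-KO, with no overlap. Phgdh rose with a log2 fold-change of 0.37 (SE 0.03, edgeR adjusted P = 6.32e-09), or 28.8%. The pseudogene Phgdh-ps1 had 0 counts in every library.

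Psat1, on chromosome 19 (15904678 to 15947337, minus strand), was the gene with most counts of the 10, with 10606, 10190 and 10070 in WT and 10945, 10322 and 11487 in Fmr1-KO. Its levels were 305.1, 308.2 and 301.8 CPM against 336.6, 337.2 and 330.2 CPM. The rise was small but the genotypes did not overlap. The log2 fold-change was 0.13 (SE 0.03, edgeR adjusted P = 0.000586), or 9.70%. The serine enzymes rose in cultures in which all 10 proliferation markers and 5 of 10 progenitor markers were also called higher. Of the other progenitor markers, Sox2, Fabp7, Hes1 and Hes5 did not pass and Hopx fell (log2 fold-change -0.40). Of 10 astrocyte markers 6 were lower and 2 were higher. The part of these cells in the result was not tested.

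The ratio of Phgdh to Asns counts within each library does not depend on scaling. It was 1.13, 1.09 and 1.08 in WT and 1.89, 1.85 and 1.96 in Fmr1-KO. The ratio of Asns to Atf4 counts was 0.574, 0.587 and 0.582 in WT and 0.408, 0.425 and 0.423 in Fmr1-KO, without overlap. The ratio of Atf3 to Atf4 was also lower in Fmr1-KO (0.0334 to 0.0429, against 0.0520 to 0.0538 in WT). Other members went the other way. Trib3 to Atf4 was 0.0151 to 0.0182 in WT and 0.02085 to 0.0332 in Fmr1-KO. Chac1 to Atf4 was 0.0231 to 0.0244 in WT and 0.0268 to 0.0323 in Fmr1-KO.

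Sesn2 and Slc7a11 serve nutrient sensing and cystine supply. Sesn2, on chromosome 4 (132492032 to 132510501, minus strand), encodes a leucine sensor that restrains mTORC1. It had 1239, 1216 and 1156 counts in WT and 1433, 1351 and 1291 in Fmr1-KO, or 35.6, 36.8 and 34.6 CPM against 44.1, 44.1 and 37.1 CPM. Sesn2 rose with a log2 fold-change of 0.22 (SE 0.06, edgeR adjusted P = 0.00307), and Fmr1-KO replicate 3 lay only just above the highest WT library.

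Slc7a11, on chromosome 3 (49892526 to 50443614, minus strand), encodes the cystine importer of system xc-, which supplies cysteine for glutathione. Its counts were 1915, 1880 and 1969 in WT and 2019, 1971 and 1889 in Fmr1-KO, or 55.1, 56.9 and 59.0 CPM against 62.1, 64.4 and 54.3 CPM. Fmr1-KO replicate 3 was the lowest of all 6 libraries and the other Fmr1-KO libraries were the highest. The log2 fold-change of 0.08 (SE 0.05) did not pass the threshold (edgeR adjusted P = 0.227, 95% interval -0.03 to 0.19). Without Fmr1-KO replicate 3 it was 0.15, with an adjusted P of 0.0131 by edgeR.

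**Figure D4:**
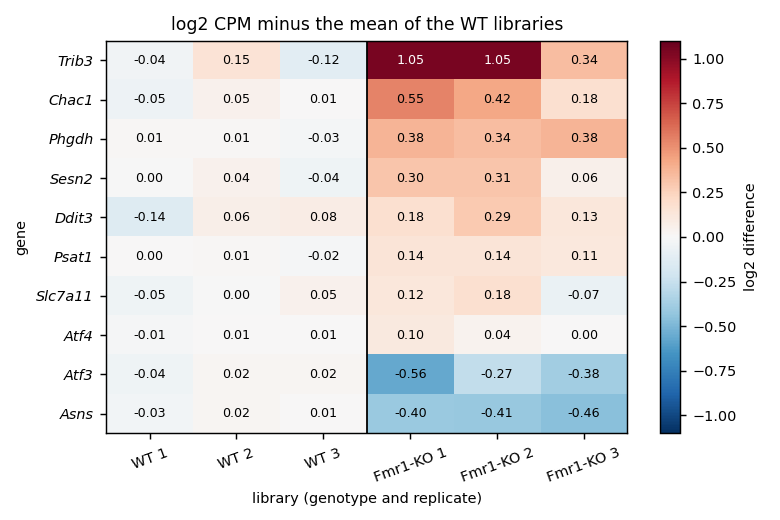
Log2 CPM of each gene (rows) in each library (columns) minus the mean of the 3 WT libraries, as color and number. Fmr1-KO replicates 1 and 2 both reach 1.05 for Trib3 where replicate 3 is at 0.34, while Asns is between -0.46 and -0.40 in all 3.

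Fmr1-KO replicate 3 was the lowest library of its genotype for 8 of the 10 genes, the exceptions being Atf3, which was lowest in replicate 1, and Phgdh, lowest in replicate 2. Over all tested genes, replicate 3 was the lowest Fmr1-KO library for 31.5%. Relative to the mean of the Fmr1-KO libraries on the log scale, replicate 3 was at 0.722 for Trib3, 0.867 for Chac1, 0.891 for Sesn2 and 0.903 for Slc7a11, but at 0.977 for Asns and 0.987 for Psat1. Its total of 34516970 counts was the highest of the genotype. Its summed proliferation markers lay between those of the other Fmr1-KO libraries. Its other marker sums were at an extreme of the genotype, a common position among only 3 libraries. Those of neurons (4422 CPM), astrocytes (5495 CPM), microglia (205.7 CPM) and endothelial and mural cells (438.4 CPM) were the highest. Those of neural progenitors (2827 CPM) and the oligodendrocyte lineage (1344 CPM) were the lowest. The part of cell make-up in the spread of replicate 3 was not tested.

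To describe this spread, each library's log2 CPM was taken as a deviation from the mean of its genotype, and the 45 pairs of genes were correlated over the 6 libraries. The points of such a correlation share their library and its scaling, and it is given as a description only. Pairs of other genes were not correlated, so how usual the values below are among all tested genes is not known. The largest deviations of Trib3, Chac1 and Sesn2 were those of Fmr1-KO replicate 3, which therefore weighs most in their correlations. Trib3 and Sesn2 varied together most closely (Pearson's r = 0.998), followed by Atf4 with Chac1 (0.939), Trib3 with Chac1 (0.913) and Trib3 with Psat1 (0.908). The median over pairs was 0.537, 10 pairs were above 0.8 and 13 were below 0. All of the pairs below 0 included Atf3 or Phgdh, the lowest being Ddit3 with Phgdh (-0.666) and Atf4 with Atf3 (-0.656). Asns, which fell in Fmr1-KO, varied between libraries of a genotype with Chac1 (0.877) and Trib3 (0.798), which rose.

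Levels of different genes were compared per length, as CPM per 1000 bases of exon (RPKM, with exons merged over all GENCODE M21 transcripts). In WT the order was Atf4 (73.7 ± 0.555 RPKM, SD, n = 3), Psat1 (71.7 ± 0.759), Phgdh (44.7 ± 0.673), Asns (36.9 ± 0.681) and Sesn2 (10.3 ± 0.308). Below these came Ddit3 at 6.06 RPKM, Atf3 at 4.29, Slc7a11 at 4.09, Chac1 at 2.52 and Trib3 at 1.35. The WT libraries of Atf3 and Slc7a11 overlapped, and the other neighbors did not. In Fmr1-KO Psat1 (78.7 RPKM) stood above Atf4 (76.2 RPKM), but their libraries overlapped. Phgdh was at 57.5, Asns at 27.5, Sesn2 at 12.02, Ddit3 at 6.94, Slc7a11 at 4.33, Chac1 at 3.30, Atf3 at 3.25 and Trib3 at 2.42 RPKM. Chac1 and Atf3 overlapped in Fmr1-KO, whereas in WT Atf3 was above Chac1 in every library. Slc7a11 has 13922 bases of merged exon, more than any other of the 10, and Psat1 has 4254. Which exons the cells use was not measured for any of the 10 genes, so the order holds for these merged lengths only.

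The rest of the pathway was described by lists, with counts of genes that passed the test. These counts are to be read beside the 20.7% of all tested genes called higher and the 21.9% called lower. Upstream, of 7 eIF2 kinases and regulators 2 were higher, 1 was lower and 4 did not pass (median log2 fold-change 0.10). Eif2ak3, the ER-stress kinase PERK, rose from 46.3 ± 1.22 to 52.9 ± 0.186 CPM (SD, n = 3, log2 fold-change 0.19). Dnajc3, an inhibitor of these kinases, rose (0.10), and Eif2ak1, the heme-regulated kinase, fell by 0.13 on the log2 scale. Dnajc3 did not pass once WT replicate 3 was left out (0.09), which left 1 of the 7 higher. Eif2ak4, the amino acid-sensing kinase GCN2, did not pass (0.10, edgeR adjusted P = 0.108). Of 10 subunits of eIF2, eIF2B and the eIF2 phosphatase, 1 was higher (Eif2s3x, 0.18), 1 was lower (Eif2s2, -0.13) and 8 did not pass (median -0.06). Among these was Ppp1r15a, the stress-induced phosphatase subunit GADD34, itself a target of ATF4, at 39.6 ± 1.36 CPM in WT and 40.2 ± 0.120 CPM in Fmr1-KO (SD, n = 3, log2 fold-change 0.02, 95% interval -0.07 to 0.11).

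Of 18 bZIP factors that pair with or resemble ATF4, 6 were higher, 3 were lower and 9 did not pass (median 0.07). Atf5, an ATF4 paralog and target, rose from 127.8 ± 6.58 to 162.8 ± 13.99 CPM (log2 fold-change 0.35, edgeR adjusted P = 4.47e-06). Jun (0.30) and Jund (0.19) rose, and Cebpd (-0.59), Junb (-0.49) and Cebpa (-0.42) fell. The libraries of Jund overlapped between genotypes, and its call was lost under DESeq2 (adjusted P 0.278) and when replicate 1 of WT, replicate 2 of WT or Fmr1-KO replicate 1 was left out (log2 fold-changes 0.13, 0.18 and 0.08). With WT replicate 1 left out 3 of the 18 were higher.

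Of 9 other enzymes of serine, glycine and one-carbon metabolism 5 were higher, 1 was lower and 3 did not pass (median 0.15). Mthfd2, the mitochondrial folate enzyme, rose from 19.1 ± 1.18 to 25.3 ± 0.908 CPM (log2 fold-change 0.40). Psph, which completes serine synthesis after Psat1, rose (0.27), as did Shmt2 (0.17), while Aldh1l2 fell by 0.15 on the log2 scale. The Aldh1l2 call was lost when WT replicate 1 or Fmr1-KO replicate 3 was left out (log2 fold-changes -0.13 and -0.10), which left 0 of the 9 lower by edgeR. Each of the 3 enzymes of serine synthesis from Phgdh to Psph was called higher, as were 20.7% of all tested genes. With a fold change above 1.2 required, Phgdh kept its call and Psat1 and Psph lost theirs.

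Of 12 enzymes of proline, aspartate, alanine and sulfur amino acids, 3 were higher, 5 were lower and 4 did not pass (median 0.00), and with library totals alone 3 were lower. The proline synthesis genes Pycr1 (0.39) and Aldh18a1 (0.26) rose. Got1 (-0.33) and Got2 (-0.22), the transaminases that make aspartate, a substrate of asparagine synthetase, fell.

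Of 11 amino acid transporters 2 were higher, 2 were lower and 7 did not pass (median 0.01). Slc1a5, a glutamine transporter, rose (0.38), as did Slc38a1 (0.13), whereas Slc7a3, a transporter of arginine and lysine, fell from 19.6 ± 3.08 to 12.2 ± 1.13 CPM (log2 fold-change -0.68). Slc1a4 fell by 0.11 on the log2 scale. Slc3a2, the partner chain of Slc7a11, was at a log2 fold-change of 0.04 (edgeR adjusted P = 0.325).

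The 20 cytosolic aminoacyl-tRNA synthetases, many of them ATF4 targets, were called in both directions. Of these 7 were lower, 1 was higher and 12 did not pass (median -0.02). Hars (-0.23), Gars (-0.18) and Yars (-0.16) fell and Dars rose (0.12). Without WT replicate 2 the number called higher was 2.

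Of 22 tested genes among other stress-induced targets of ATF4 and CHOP, 7 were higher, 5 were lower and 10 did not pass (median -0.06). Nupr1, a stress-induced chromatin protein, rose from 4.503 ± 0.217 to 6.37 ± 0.464 CPM (log2 fold-change 0.50). Ddit4, an inhibitor of mTORC1, rose (0.43), as did Eif4ebp1, a repressor of cap-dependent translation (0.41). Ndrg1 (-0.44), Vldlr (-0.28) and Trib1 (-0.20) fell, though Trib1 did not pass once WT replicate 1 was left out (-0.17), a fit in which 3 of the 22 were lower. Fgf21, a secreted hormone induced by ATF4, had 3 to 5 counts in 5 of the libraries and 15 in Fmr1-KO replicate 2, too few to test.

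The paralogs of the members did not all move with them. Trib2 was at a log2 fold-change of -0.09 (edgeR adjusted P = 0.0561), where Trib3 was at 0.83. Sesn1 rose (0.17, edgeR adjusted P = 0.00119) as Sesn2 did, and Sesn3 was at a log2 fold-change of -0.04 (adjusted P 0.335). Chac2 was at a log2 fold-change of -0.17 (edgeR adjusted P = 0.192), with overlapping libraries.

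Parallel stress pathways were described in the same way. Of 16 ER chaperones and other targets of ATF6 or XBP1, 3 were higher, 2 were lower and 11 did not pass (median 0.05). These counts depended on the library left out: 7 were higher without WT replicate 2, and 1 was higher without WT replicate 1 and likewise without WT replicate 3. With library totals alone 6 were higher and 1 was lower. Pdia4 rose (0.30) and Edem1 fell by 0.23 on the log2 scale. Hspa5, the ER chaperone BiP, was at 407.9 ± 54.7 CPM in WT and 426.2 ± 15.2 CPM in Fmr1-KO (SD, n = 3, log2 fold-change 0.06, edgeR adjusted P = 0.403). Hsp90b1 (0.15), Calr (0.13) and Xbp1 (-0.18) were called, but each overlapped between genotypes. The Calr call was lost when any of 3 libraries was left out, namely replicate 1 of either genotype or WT replicate 3 (log2 fold-changes 0.12, 0.11 and 0.10). The Hsp90b1 call was lost under DESeq2 (adjusted P 0.168) and without WT replicate 1, WT replicate 3 or, separately, Fmr1-KO replicate 2 (log2 fold-changes 0.12, 0.10 and 0.13). The Xbp1 call was lost under DESeq2 (adjusted P 0.232), with library totals alone, and when replicate 1 of WT, replicate 2 of WT or Fmr1-KO replicate 2 was left out (log2 fold-changes -0.18, -0.08 and -0.13). Of 10 NRF2 targets, with which Slc7a11 shares its other main regulator, 2 were higher, 1 was lower and 7 did not pass (median 0.05), and with library totals alone 4 were higher. Srxn1 (0.23) and Txnrd1 (0.17) rose, and Hmox1, heme oxygenase, fell from 147.0 ± 6.99 to 103.9 ± 4.87 CPM (log2 fold-change -0.50).

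**Figure D5:**
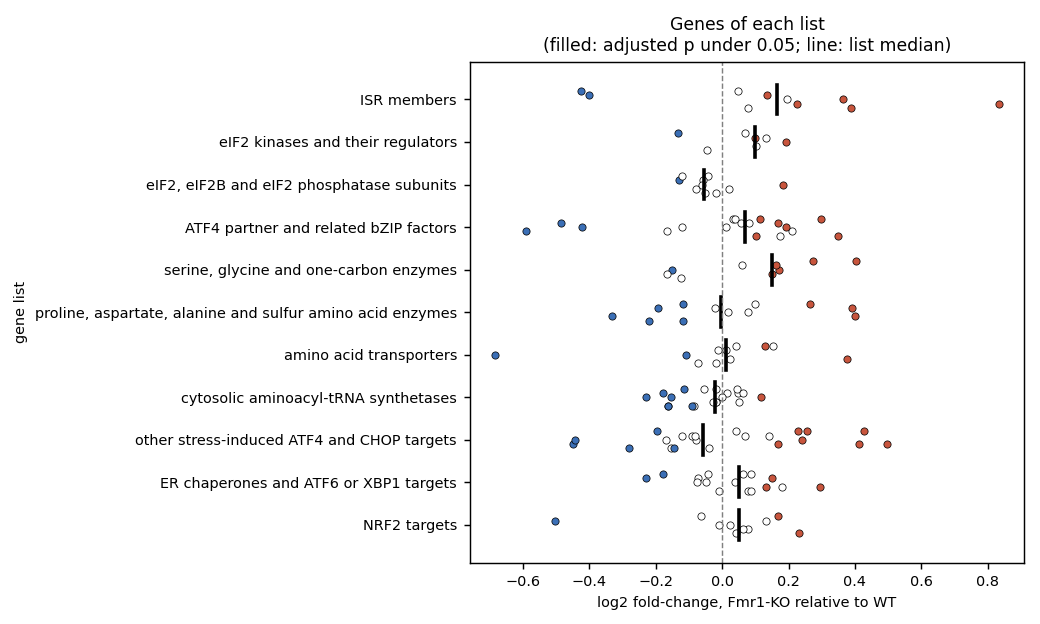
Log2 fold-change (x axis) in Fmr1-KO relative to WT of every tested gene of the 10 members and of each pathway list (y axis); filled points have an adjusted P under 0.05 by edgeR and black lines mark list medians. List medians run from -0.06 to 0.165, and Trib3 (0.83) and Slc7a3 (-0.68) are the outermost genes.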

How the data were processed

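RNA-seq data of 3 WT and 3 Fmr1-KO libraries were used, grouped by their titles. The table deposited by the authors holds raw counts, 1 row per gene name. By their methods, single-end reads from stranded libraries were trimmed with FastP and aligned to GRCm38.p6 with STAR (2.7.6a in the submitters' processing notes). The reads were assigned to exons with featureCounts, reverse-stranded and summed by gene name. This keeps neighbors on the opposite strand apart but not isoforms. The settings given name no option for reads that align to several places, so reads shared by near-identical copies may be missing from the counts. No row lacked a name. Sesn2 and Slc7a11 overlap other annotated genes on their strand, and reads in shared exons could be lost from either.

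Genes passing filterByExpr were tested with edgeR 4.0.16 (R 4.3.3; TMM, glmQLFit and glmQLFTest, 2-sided, genotype as the only term, Benjamini-Hochberg over 16976 genes). SE is the log2 fold-change over the square root of F, and the 95% interval uses the moderated degrees of freedom. The study describes the triplicate samples as derived independently. The labels name no litter or animal, and P-values measure the spread between these samples. Replicates differed by more than counting noise (chi-square per degree of freedom 2.92 in WT and 3.17 in Fmr1-KO). The code was tested on simulated data. Coordinates are from GENCODE M21, promoter sequences from RefSeq (GRCm38.p6).

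The members and lists were chosen with earlier results of these data known. In each pathway list the genes named were up to 3 higher and 3 lower called genes with the largest change and a mean of at least 5 CPM, and 1 gene that met this rule is not reported here; Ppp1r15a, Eif2ak4, Slc3a2, Hspa5, the paralogs and Phgdh-ps1 were named for their role after their values had been seen, as were the count ratios. Each result was recomputed with DESeq2 1.42.0, with RLE or upper-quartile factors or none beyond library size, without the filter or with one at a mean of 10 counts and 5 CPM, with replicate number as a block, with each library left out in turn, after dropping the 20 genes of highest abundance, and against a minimum fold change of 1.2.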

Additional observations from a re-analysis of the deposited data

How the results depend on the processing

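The members called lower numbered 2 under every alternative but 1: with a fold change above 1.2 required, 1 was lower and 2 were higher, and over all genes 1340 were lower and 883 higher. With the stricter filter 3 members were higher and the median of the members tested was 0.107, as Trib3 and Chac1 have too few counts for it. Across the 6 fits that each left out 1 library, 4 to 7 members were higher and the median ran from 0.130 to 0.190. Of 148 values recomputed for single members, 137 gave the reported direction and call, 5 lost the call, 6 gained one and 0 changed direction. Besides the calls named above, Ddit3 passed with upper-quartile normalization (adjusted P 0.0441 by edgeR) and when WT replicate 2 (0.0476) or Fmr1-KO replicate 3 (0.0499) was left out. Over the alternatives that test for any difference, the adjusted P of Ddit3 ran from 0.0279 to 0.265 (without WT replicate 1), both by edgeR. With a fold change above 1.2 required it did not pass.

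With a fold change above 1.2 required, most calls in the pathway lists were lost. Over all tested genes the share called was then 13.1%, against 42.6% without this requirement. In 4 lists 0 genes were called: eIF2 kinases and regulators, eIF2 and eIF2B subunits, aminoacyl-tRNA synthetases, and ER chaperones. Of the serine, glycine and one-carbon enzymes 1 was higher and 0 were lower. Of the other targets of ATF4 and CHOP 3 were higher and 1 was lower. List medians that reversed were near 0 or rested on a gene of few counts. With library totals alone that of proline, aspartate, alanine and sulfur amino acid enzymes was 0.0251 and that of aminoacyl-tRNA synthetases 0.00520. That of endothelial and mural markers was -0.155 with no filter, when Cldn5 entered. That of amino acid transporters ran from -0.0152, without Fmr1-KO replicate 1, to 0.0225, without WT replicate 2, across fits leaving out a library.

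Deviations of same-numbered WT and Fmr1-KO libraries were hardly correlated (-0.0496, 0.0469 and 0.000739). This cannot show whether such libraries were prepared together, which the labels do not say. With a replicate block 2 members were lower and 5 higher, and over all genes 3694 were lower and 3488 higher. Trib3 and Chac1, at 88 to 196 counts, are the members whose precision depth limits most.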
